A study of Schizosaccharomyces pombe with 8 samples.

Results

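Ribosomal proteins Rps14 and Rps22 of the fission yeast Schizosaccharomyces pombe are each made from a pair of genes. The 4 genes rps1401 (SPAC3H5.05c), rps1402 (SPBC18H10.13), rps2201 (SPAC22A12.04c) and rps2202 (SPAC5D6.01) were taken by their IDs from a table of 7000 genes. The pairs were chosen by the change of their weak copies, rps1401 and rps2202, which were much lower in one mutant strain, S2A, than in wild type. All 4 were found and all 4 passed the filter on low counts, which left 6243 genes. Total RNA was sequenced after removal of ribosomal RNA in 4 strains with 2 libraries each, from cells grown in rich YES medium to mid-log phase at an optical density of 0.5. The mutant strains carried a changed C-terminal domain (CTD) of Rpb1, the largest subunit of RNA polymerase II: its repeated heptad had serine 2 replaced by alanine in S2A (genotype rpb1 S2A::kanMX6), serine 7 by alanine in S7A (rpb1 S7A::kanMX6) and tyrosine 1 by phenylalanine in Y1F (rpb1 Y1F::kanMX6). The wild-type strain (WT) carried no such change. All 4 strains were of mating type h- and held the tagged polymerase subunit gene Rpb3-3HA::hphMX6. The kanMX6 marker was present in every mutant and absent from WT, so an effect of the marker and one of the residue cannot be told apart, and counts per gene do not show the substitutions themselves. The study asked what phosphorylation of serine 2 does in transcription, with antisense RNA and the formation of RNA 3′ ends as its concerns.

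Rps14, called uS11 in the naming shared by all organisms, sits on the platform of the small ribosomal subunit, and Rps22, called uS8, binds the body of the same subunit. Each ribosome needs a single molecule of both, so a yeast with gene copies for such a protein can draw its mRNA from either copy. In budding yeast, Rps14 protein binds its own RNA and lowers output from the second gene copy, and the RNA of one RPS22 copy carries an intron that is cut by the nuclease Rnt1. Those roles are known from budding yeast and were not measured here. The CTD of Rpb1 is phosphorylated as genes are transcribed and recruits factors for elongation, chromatin marking and RNA processing.

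The copies of each pair encode the same protein and differ in their DNA. In the reference annotation of build ASM294v3, the coding regions of rps1401 and rps1402 were 420 bases long and differed at 27 of them (93.6% identity), with 0 of 139 residues different. Those of rps2201 and rps2202 were 393 bases long and differed at 30 (92.4% identity), with 0 of 130 residues different. Of 483 stretches of 100 bases, the read length, in the rps1401 transcript, 2 also occurred in rps1402. Of 553 such stretches in the rps2202 transcript, 0 occurred in rps2201. Few reads of full length could therefore match both copies of a pair exactly, although a read with sequencing errors or a shorter alignment could still be given to the wrong copy. The sum of a pair is not moved by reads given to the wrong copy, and sums are reported beside each copy. The genes rps1401, rps1402 and rps2201 were annotated with 1 exon, whereas rps2202 had 2 exons and an intron of 147 bases ahead of its start codon. rps1401, rps2201 and rps2202 lie on chromosome I and rps1402 on chromosome II.

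The libraries held 13391705 to 23081870 counts, and the 4 genes together took 0.261 to 0.346% of them. Replicates had Spearman correlations across genes of 0.9976 to 0.9988. The 136 cytosolic ribosomal protein genes together took 15.01 to 16.2% of counts in the 6 mutant libraries, against 18.1% in WT replicate 1 and 16.8% in WT replicate 2, so the WT replicates lay furthest apart. Mitochondrial genes took 3.46 to 3.65% of counts in S2A and S7A and 2.67 to 2.86% in Y1F, against 2.10 to 2.70% in WT, and the part of this in the results was not tested. Separate cultures are not stated for the libraries of a strain. The p-values therefore cover no more than the spread seen between these samples, and that spread could be technical. Levels below are TMM-scaled CPM, the counts of a gene per 1000000 counts of its library, and changes are log2 fold changes ± SE. A gene was called at a Benjamini-Hochberg adjusted p under 0.05 over all genes tested, by the quasi-likelihood test of edgeR. The number of cells and the RNA per cell cannot be told apart in such data.

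In WT each pair had a strong and a weak copy. Per kilobase of annotated transcript, rps1402 stood at 2010 ± 58.5 CPM and rps1401 at 829 ± 70.7 CPM, and rps2201 stood at 2944 ± 289 CPM and rps2202 at 664 ± 4.92 CPM (SD, n = 2 each). By CPM per gene the strong copies ranked 74 (rps1402) and 61 (rps2201) among the 136 ribosomal protein genes, and the weak copies ranked 131 (rps1401) and 132 (rps2202). The weak copies were thus among the lowest ribosomal protein transcripts of the wild type. They are also the copies that varied most among the strains, which follows in part from their choice by the S2A change.

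**Figure D1:**
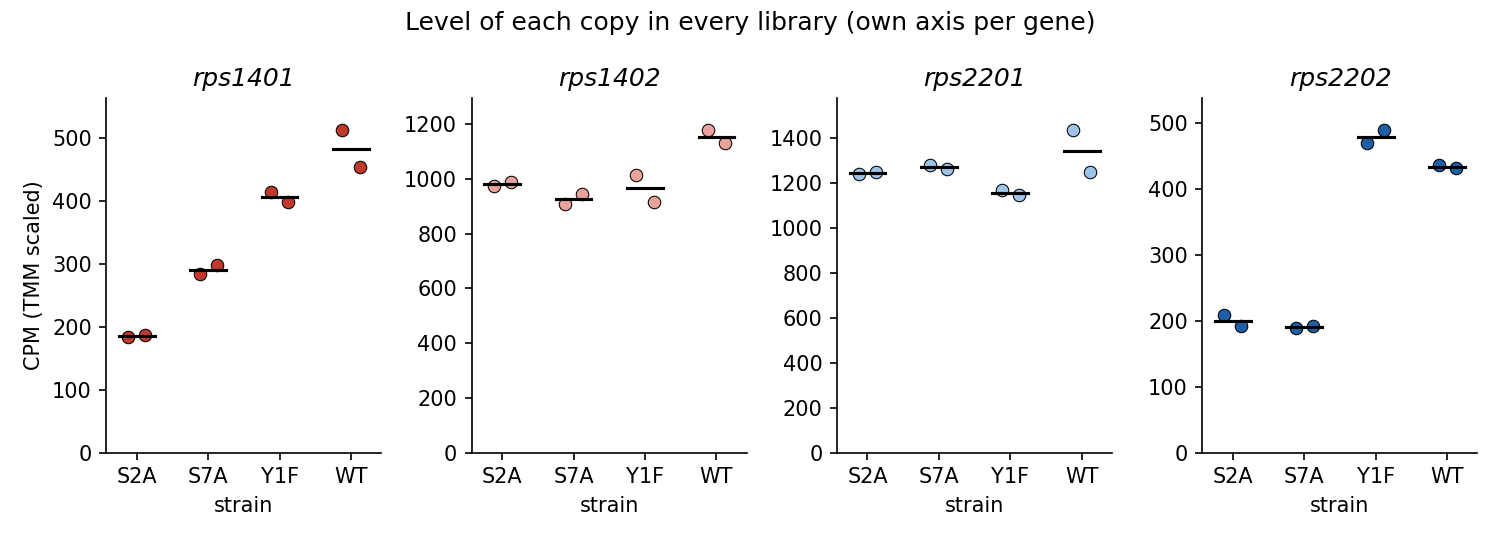
Level of each of the 4 genes in every library, in TMM-scaled CPM on the vertical axis, by strain on the horizontal axis. Points are libraries (2 per strain) and lines are means; each gene has its own axis, starting at 0. rps1401 steps up from S2A (mean 185 CPM) to S7A (290), Y1F (406) and WT (483), whereas rps2202 is low in S2A (200) and S7A (190) and high in Y1F (479) and WT (433).

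The weak copy rps1401 had a different level in each strain. Its values were 183 and 187 CPM in S2A, 283 and 297 CPM in S7A, 414 and 397 CPM in Y1F, and 512 and 453 CPM in WT. No library of one strain overlapped those of another, so the order from low to high was S2A, S7A, Y1F and WT. The S2A mean was 38.3% of the WT mean, the S7A mean 60.1% and the Y1F mean 84.1%. In S2A the change against WT was −1.38 ± 0.058, which is the value that chose the gene and is given without a test; rps1401 and rps2202 were both lower by at least 2-fold there, as were 3.01% of all genes.

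The comparisons of S7A and Y1F did not choose the genes and were tested, although they share the WT libraries with S2A. rps1401 fell in S7A, with a change of −0.73 ± 0.057 (adjusted p = 9.68e-07). In Y1F it also fell, with a change of −0.25 ± 0.056 (adjusted p = 0.00465). The Y1F call was lost without Y1F replicate 2 (−0.22, adjusted p = 0.0515), and the value was −0.17 (adjusted p = 0.0339) without WT replicate 1. Its difference between S7A and Y1F was −0.48 ± 0.057 (adjusted p = 2.19e-05). That contrast sets no S2A or WT library against another, but its scaling and spread were estimated from all 8 libraries. An edgeR fit of the S7A and Y1F libraries alone gave −0.47 ± 0.038 (adjusted p = 2.04e-06). S2A also lay below S7A (−0.65 ± 0.058) and below Y1F (−1.13 ± 0.058), given without a test.

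Its partner rps1402 differed less among the strains. It stood at 975 and 987 CPM in S2A, at 907 and 946 CPM in S7A, at 1014 and 915 CPM in Y1F, and at 1177 and 1130 CPM in WT. All 6 mutant libraries were below both WT libraries, and the mutants overlapped or lay close to one another. The change in S2A was −0.23 ± 0.057, given without a test. rps1402 fell in S7A (−0.32 ± 0.057, adjusted p = 0.000707). It also fell in Y1F (−0.26 ± 0.057, adjusted p = 0.00435), and that call was lost without Y1F replicate 2 (−0.19, adjusted p = 0.0802). From Y1F, S7A differed by −0.06, with a 95% interval of −0.22 to 0.10 (adjusted p = 0.426). rps1402 did not rise in any strain where rps1401 was low.

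In the other pair the strong copy rps2201 had means between 86.3 and 94.6% of its WT mean in the mutants. Its values were 1239 and 1249 CPM in S2A, 1280 and 1261 CPM in S7A, 1169 and 1147 CPM in Y1F, and 1436 and 1249 CPM in WT. WT replicate 1 was the highest of the 8, and WT replicate 2 lay beside the S2A and S7A libraries. The change was −0.11 ± 0.062 in S2A (no test) and −0.08 ± 0.062 in S7A, with a 95% interval of −0.25 to 0.09 (adjusted p = 0.316). Both values depended on the WT library: without WT replicate 2 they were −0.21 in S2A and −0.18 in S7A (S7A adjusted p = 0.0150), and without WT replicate 1 they were −0.0028 in S2A and 0.03 in S7A (S7A adjusted p = 0.678). In Y1F rps2201 fell, with a change of −0.21 ± 0.062 (adjusted p = 0.0192). That call was lost without Y1F replicate 1 (−0.23, adjusted p = 0.0703), Y1F replicate 2 (−0.20, adjusted p = 0.123) or WT replicate 1 (−0.12, adjusted p = 0.147). S7A differed from Y1F by 0.13 ± 0.062 (adjusted p = 0.0938), a difference that was called when either WT library was left out (0.15 without replicate 1, adjusted p = 0.0161; 0.13 without replicate 2, adjusted p = 0.0189).

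The weak copy rps2202 fell in S7A to a level close to that in S2A. It stood at 208 and 192 CPM in S2A, at 188 and 191 CPM in S7A, at 469 and 489 CPM in Y1F, and at 435 and 431 CPM in WT. The libraries formed a low set (S2A and S7A) and a high set (Y1F and WT), with Y1F above WT in both libraries. The S2A mean was 46.2% of the WT mean, the S7A mean 43.8% and the Y1F mean 111%. The change in S2A, which chose the gene, was −1.11 ± 0.048. In S7A it was −1.19 ± 0.048 (adjusted p = 3.79e-09), and between S7A and Y1F it was −1.33 ± 0.048 (adjusted p = 5.96e-10). The S2A level differed from that in S7A by 0.08, with a 95% interval of −0.06 to 0.21, given without a test.

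The Y1F rise of rps2202 was small and not stable. Its change was 0.14 ± 0.047 (adjusted p = 0.0301). It was not called with DESeq2 (0.14, adjusted p = 0.0690) or in a fit of the Y1F and WT libraries alone (0.14, adjusted p = 0.0557). It was also not called without S7A replicate 1 (adjusted p = 0.0526), S7A replicate 2 (0.0533), Y1F replicate 2 (0.207), WT replicate 1 (0.0671) or WT replicate 2 (0.0768), where values ran from 0.11 to 0.15. The fall in S7A was called under every setting tried and with each library left out.

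Across the 4 genes, 3 were called lower in S7A than in WT and 0 higher, where 24.3% of all genes tested were called lower and 23.1% higher. In Y1F 3 were called lower and 1 higher, where 17.4% of genes were lower and 17.6% higher. Other ribosomal protein genes were often lower too: 31 of 51 small-subunit and 53 of 81 large-subunit genes in S7A. In Y1F 41 and 68 of them were lower, and 0 were higher in either strain. Between S7A and Y1F, 2 were called, both lower in S7A, where 25.7% of genes were lower and 23% higher. Of the 4, rps2202 alone was lower in S7A by at least 2-fold, against WT (3.75% of all genes) and against Y1F (3.08% of all genes).

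**Figure D2:**
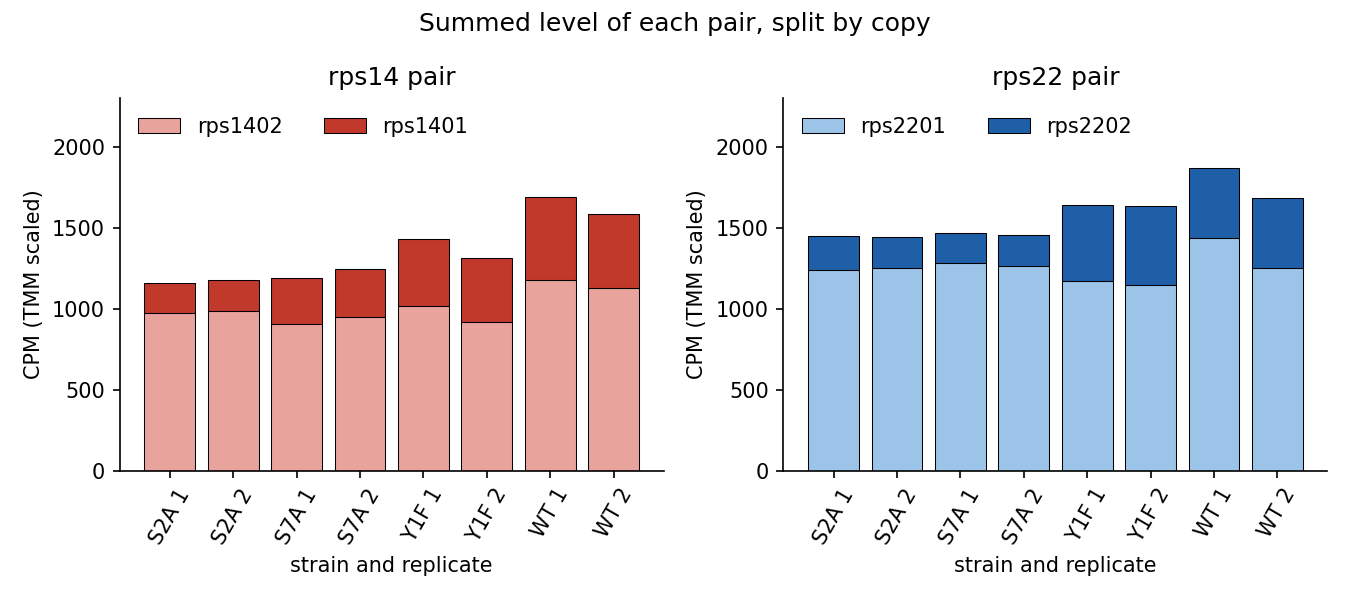
Summed TMM-scaled CPM of each pair (bar height) in every library, split into the strong copy (pale, below) and the weak copy (dark, above). The rps14 sum averages 1166 CPM in S2A and 1636 in WT, and the rps22 sum 1444 in S2A and 1776 in WT; the dark part is thinnest in S2A for rps14, and in S2A and S7A for rps22.

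The summed mRNA of each pair was lower in S2A and S7A than in WT, and neither strong copy was above its WT mean there. Many other ribosomal protein genes were also lower, as given below. For rps14 the sum stood at 1157 and 1174 CPM in S2A, at 1190 and 1243 CPM in S7A, at 1428 and 1313 CPM in Y1F, and at 1689 and 1583 CPM in WT. The S2A and S7A libraries were lowest and the WT libraries highest, with no overlap between mutant and WT libraries. The S2A mean was 71.3% of the WT mean (−0.49 ± 0.058, no test). The sum fell in S7A (−0.43 ± 0.058, adjusted p = 9.68e-05). It fell less far below WT in Y1F (−0.26 ± 0.058, adjusted p = 0.00502), a call that was lost without Y1F replicate 2 (−0.20, adjusted p = 0.0849). The difference of S7A from Y1F was −0.17 ± 0.058 (adjusted p = 0.0272), a call lost without S7A replicate 1 (−0.14, adjusted p = 0.180), S7A replicate 2 (−0.20, adjusted p = 0.0647) or Y1F replicate 1 (−0.11, adjusted p = 0.261).

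For rps22 the sum stood at 1446 and 1441 CPM in S2A, at 1468 and 1453 CPM in S7A, at 1638 and 1636 CPM in Y1F, and at 1871 and 1680 CPM in WT. WT replicate 1 was again highest, and WT replicate 2 lay closer to Y1F than to it. The S2A mean was 81.3% of the WT mean (−0.30 ± 0.058, no test). The sum fell in S7A, with a change of −0.28 ± 0.058 (adjusted p = 0.00165). Without WT replicate 1 the change was −0.215 in S2A and −0.19 in S7A (S7A adjusted p = 0.0152). In Y1F it was −0.12, with a 95% interval of −0.28 to 0.04 (adjusted p = 0.133). Leaving out WT replicate 2 gave −0.19 (adjusted p = 0.0131), and leaving out WT replicate 1 gave −0.04 (adjusted p = 0.616). S7A differed from Y1F by −0.16 ± 0.058 (adjusted p = 0.0316), and the call was lost with RLE scaling (−0.15, adjusted p = 0.0519) and without either library of S2A, S7A or Y1F (−0.17 to −0.15, adjusted p from 0.0516 to 0.150).

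These falls of the sums can be set beside the other ribosomal protein genes, of which many were called lower in each mutant and the rest were not called. Of the other 51 small-subunit genes, 28 were lower in S2A, 31 in S7A and 41 in Y1F, with 0 higher in each and median changes of −0.19, −0.22 and −0.24. Of 81 large-subunit genes, 49, 53 and 68 were lower in the same order and 0 higher, with medians of −0.19, −0.23 and −0.23; the S2A count was 32 in a fit of S2A and WT alone. In the same order, the rps22 sum was at −0.30, −0.28 and −0.12 and the rps14 sum at −0.49, −0.43 and −0.26. The rps14 sum thus lay below the small-subunit median in S2A and S7A and near it in Y1F. The rps22 sum lay somewhat below that median in S2A and S7A. In Y1F it lay above the median and was not called. The median over all genes tested was 0.01, −0.01 and 0.01, and 26.6% of all genes were lower in S2A and 28.8% higher. The counts in these lists were not repeated with a WT library left out. Ribosomal protein genes took 18.1% of counts in WT replicate 1, 16.8% in WT replicate 2 and 15.01 to 16.2% in the mutants. How far the falls of these lists rest on WT replicate 1 was not tested. The count of higher genes in these lists by edgeR was also 0 at an unadjusted p under 0.05. It was 0 with DESeq2, RLE scaling and scaling on protein-coding genes. The strong copies sat inside that spread: rps1402 ranked 36 from the lowest of 136 in S2A, 28 in S7A and 46 in Y1F, and rps2201 ranked 104, 123 and 89.

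In S2A and S7A the weak copies sat at its edge. In S2A, rps1401 and rps2202 had the lowest values of the 136 genes. Those S2A values chose the genes, so their low ranks there follow largely from the choice. The next was rpp202, a stalk protein gene, at −0.48. In S7A the lowest was rpl1603, a copy of the gene for uL13, at −1.29 ± 0.048 (adjusted p = 1.89e-09), followed by rps2202 and rps1401. In Y1F the order was different: rps2202 was the highest of the 136, and rps1401 ranked 53 from the lowest.

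**Figure D3:**
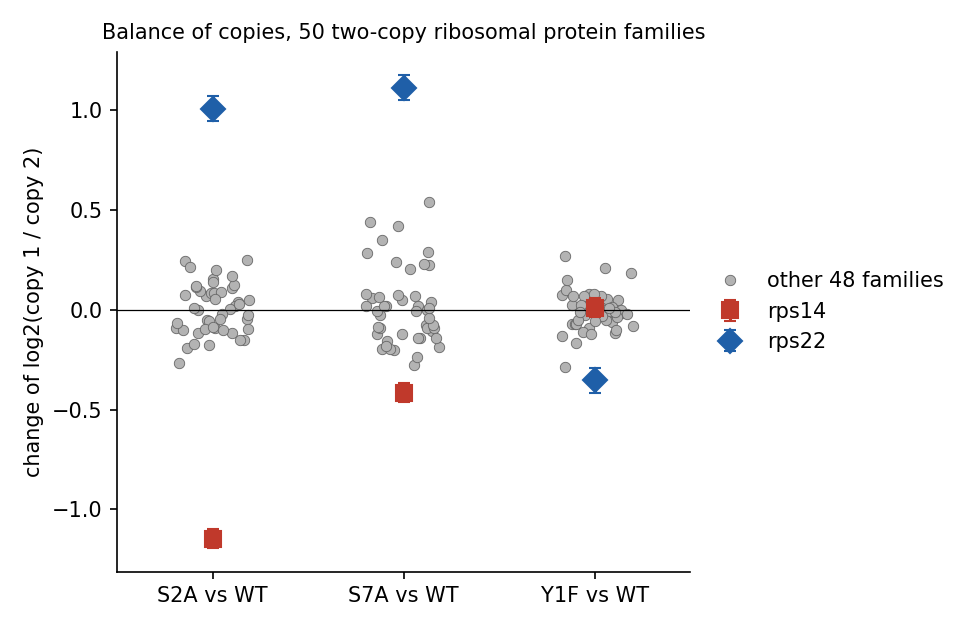
Change of the log2 ratio of copy 1 to copy 2 (vertical axis; copy 1 has the lower symbol number) in each mutant against WT, for 50 ribosomal protein families with exactly 2 copies. Red squares are rps14 and blue diamonds rps22, with SE bars; grey points are the other 48 families. rps14 lies at −1.15 in S2A, −0.42 in S7A and 0.01 in Y1F, and rps22 at 1.01, 1.11 and −0.35.

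The balance between copies needs no scaling between libraries, because both copies are read in the same library. The share of rps14 counts that came from rps1401 was 15.8% and 15.9% in S2A, 23.8% and 23.9% in S7A, 29.0% and 30.3% in Y1F, and 30.3% and 28.6% in WT. Y1F and WT overlapped, S7A lay below them and S2A lay lowest. The share of rps22 counts from rps2202 was 14.4% and 13.3% in S2A, 12.8% and 13.2% in S7A, 28.6% and 29.9% in Y1F, and 23.3% and 25.6% in WT. For this pair S2A and S7A lay together at the bottom, and both Y1F libraries lay above both WT libraries. The exact 95% binomial intervals of these shares reached 0.368 to 0.640 percentage points to either side, and cover counting error only.

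The ratio was tested with limma over all 50 ribosomal protein families that have exactly 2 copies. In S7A the log2 ratio of rps1401 to rps1402 changed by −0.42 ± 0.049 (adjusted p = 2.72e-05) and that of rps2201 to rps2202 by 1.11 ± 0.063 (adjusted p = 4.29e-08), where 46% of the 50 families were called. In Y1F the rps14 ratio was 0.01, with a 95% interval of −0.12 to 0.15 (adjusted p = 0.931). The rps22 ratio moved the other way in Y1F, by −0.35 ± 0.063 (adjusted p = 0.00362), where 12% of families were called. That call was lost without WT replicate 1 (−0.26, adjusted p = 0.0728). S7A differed from Y1F in the rps14 ratio by −0.43 ± 0.049 (adjusted p = 1.65e-05) and in the rps22 ratio by 1.47 ± 0.063 (adjusted p = 1.84e-09), where 48% of families were called.

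By size, the rps22 ratio changed most of the 50 in S7A, in Y1F and between S7A and Y1F, and rps14 ranked 5, 42 and 4. The other families that moved most in S7A were rpl30 at 0.54 ± 0.077 (adjusted p = 0.00017) and rps19 at 0.44 ± 0.042 (adjusted p = 7.73e-06). In Y1F they were rpl1 at −0.29 ± 0.055 (adjusted p = 0.00362) and rps10 at 0.27 ± 0.049 (adjusted p = 0.00362). In S2A, rps14 changed by −1.15 ± 0.049 and rps22 by 1.01 ± 0.063 (no test), where 26% of the 50 families were called. That share includes the chosen pairs, and 11 of the other 48 families were called. The other 48 families had a median size of change of 0.09 there, and none of them exceeded 0.26, the size for rps24. Because the choice was made by S2A values, the larger S2A changes of rps14 and rps22 follow largely from it.

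The genes around each copy were examined because antisense transcription was a concern of the study. In the ASM294v3 annotation the whole of rps1401 lies inside aar2, a gene of the opposite strand that encodes an assembly factor of the U5 spliceosomal particle. aar2 stood at 55.3 and 53.7 CPM in S2A, at 44.1 and 46.1 CPM in S7A, at 48.3 and 52.0 CPM in Y1F, and at 42.8 and 47.6 CPM in WT. It rose in S2A, at 0.27 ± 0.067 (adjusted p = 0.00414), with both S2A libraries above both WT libraries. In S7A, where rps1401 fell too, aar2 was at 0.00 ± 0.068 (adjusted p = 0.997), and in Y1F at 0.16 ± 0.068 (adjusted p = 0.0921). Its part in the level of rps1401 was not tested.

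The libraries keep the strand of the RNA, but whether the counting used it is not stated; without it, reads of these genes cannot be told apart. rps1401 had 3.31 and 3.48 counts per aar2 count in S2A, 6.41 and 6.45 in S7A, 8.58 and 7.64 in Y1F, and 11.96 and 9.53 in WT, so most reads of rps1401 were not also assigned to aar2. pol1, the DNA polymerase alpha gene upstream on the same strand as rps1401, fell in all 3 mutants, at −0.34 ± 0.045 in S2A, −0.39 ± 0.045 in S7A and −0.23 ± 0.045 in Y1F (adjusted p = 4.73e-05 for S2A, 2.63e-05 for S7A and 0.00166 for Y1F). The kinesin gene pkl1, downstream, was at 0.15 ± 0.058 in S2A, −0.05 ± 0.058 in S7A and 0.28 ± 0.057 in Y1F (adjusted p = 0.0422, 0.501 and 0.00261). The genes aar2 and pkl1 thus did not share the order of strains of rps1401. pol1 came closer to it, with means of 159 CPM in S2A, 153 in S7A, 170 in Y1F and 200 in WT. Only S2A and S7A were in the reverse order in pol1, and that difference was not tested.

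**Figure D4:**
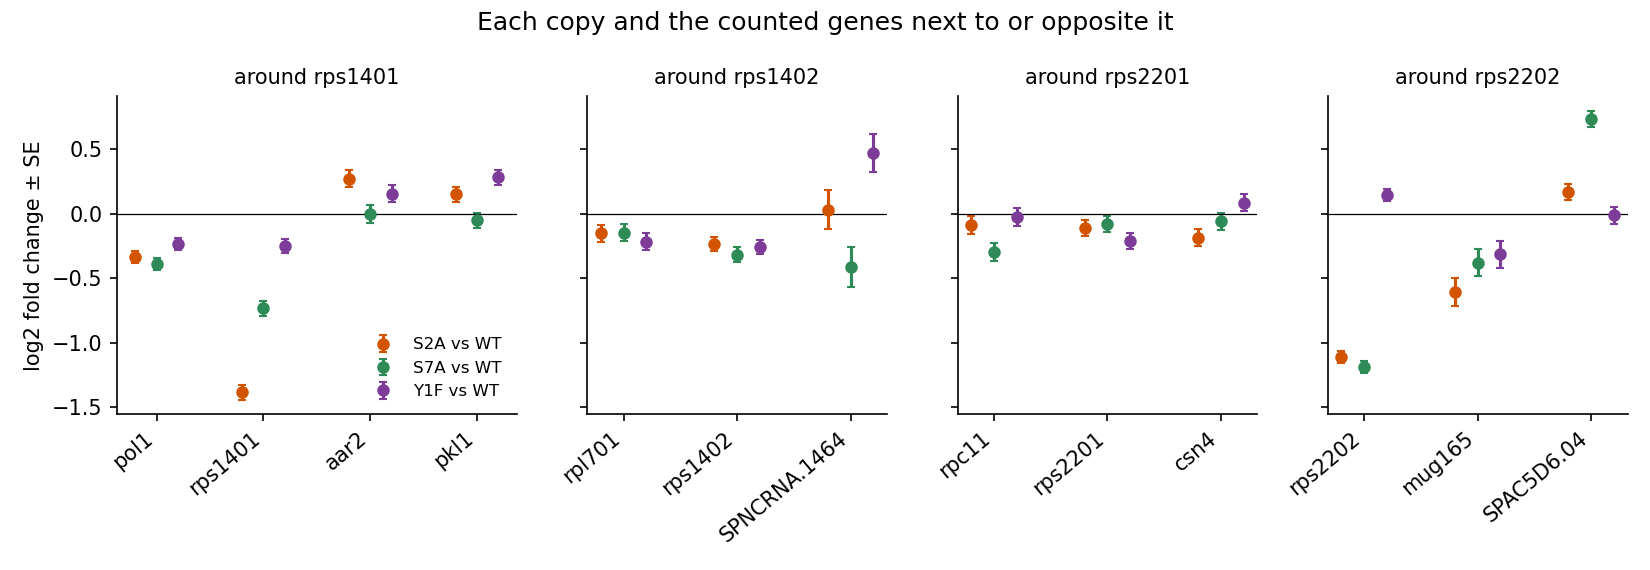
Log2 fold change ± SE against WT (vertical axis) of each of the 4 genes and of the counted genes next to or opposite it (horizontal axis), in S2A, S7A and Y1F. rps1401 lies at −1.38, −0.73 and −0.25 and the opposite gene aar2 at 0.27, 0.00 and 0.16; rps2202 lies at −1.11, −1.19 and 0.14.

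rps2202 overlaps mug165, a meiotically upregulated gene of the opposite strand, by 15 bases in the same annotation. mug165 fell in all 3 mutants, at −0.61 ± 0.109 in S2A, −0.38 ± 0.106 in S7A and −0.31 ± 0.106 in Y1F (adjusted p = 0.000507, 0.0110 and 0.0367). The next counted gene downstream on the strand of rps2202, SPAC5D6.04, rose in S7A, with a mean of 155 ± 5.82 CPM in S7A against 93.1 ± 7.73 CPM in WT (0.74 ± 0.062, adjusted p = 1.98e-06), and in S2A, at 0.17 ± 0.063 (adjusted p = 0.0374). In Y1F it was at −0.01 ± 0.064 (adjusted p = 0.906). Upstream and on the opposite strand, SPNCRNA.173 was low, at 0.753 ± 0.586 CPM in S2A, 0.813 ± 0.459 CPM in S7A, 1.31 ± 0.0897 CPM in Y1F and 1.79 ± 0.676 CPM in WT, and was not called in any mutant.

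Around the strong copies a few neighbours were called. The noncoding RNA SPNCRNA.1464 overlaps rps1402 by 84 bases on the opposite strand; it was at 0.03 ± 0.152 in S2A (adjusted p = 0.875), fell in S7A, at −0.41 ± 0.157 (adjusted p = 0.0466), and rose in Y1F, at 0.47 ± 0.146 (adjusted p = 0.0248). rpl701, which encodes a large-subunit protein and lies upstream of rps1402 in the opposite direction, was at −0.15 ± 0.065 in both S2A and S7A (adjusted p = 0.0653 and 0.0855) and fell in Y1F, at −0.22 ± 0.065 (adjusted p = 0.0221). SPNCRNA.1465, downstream and opposite, averaged 0.229 to 0.746 CPM in the 4 strains and was not called in any mutant. Next to rps2201, the RNA polymerase III subunit gene rpc11 fell in S7A, at −0.30 ± 0.069 (adjusted p = 0.00392), and csn4, of the COP9 signalosome, fell in S2A, at −0.18 ± 0.068 (adjusted p = 0.0355). The antisense RNA SPNCRNA.2516 is annotated opposite rps2201 and covers 373 of its bases (81.8%). It was not among the 7000 genes counted, so its level cannot be given.

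Genes that assemble the small subunit, break down ribosomal protein RNA or regulate these genes were counted against the shares of all genes called, which were 28.8% higher and 26.6% lower in S2A, 23.1% and 24.3% in S7A, and 17.6% and 17.4% in Y1F. Of 14 assembly factors of the small subunit, 1 was higher and 4 lower in S2A, 0 and 6 in S7A (0 higher also at an unadjusted p under 0.05 and with DESeq2, where 3 were lower), and 1 and 1 in Y1F. The 4 lower in S2A are close to the share of all genes. fap7, whose budding yeast homologue brings Rps14 to the assembling ribosome, fell in S2A, at −0.23 ± 0.072 (adjusted p = 0.0164); it was at −0.13 ± 0.071 in S7A and 0.11 ± 0.071 in Y1F. ltv1, an export and assembly factor, had the direction of rps2202 in S7A and Y1F: it fell in S7A, at −0.47 ± 0.045 (adjusted p = 5.74e-06), rose in Y1F, at 0.26 ± 0.043 (adjusted p = 0.000681), and was at 0.00 ± 0.044 in S2A. rio2, a kinase of late assembly, fell in S2A, at −0.22 ± 0.061, and in S7A, at −0.49 ± 0.061 (adjusted p = 0.00885 and 5.49e-05).

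Among 11 genes for the decay of ribosomal protein precursor RNA or of mRNA with early stop codons, 4 were higher and 2 lower in S2A, 2 and 3 in S7A, and 1 and 1 in Y1F, and most of these counts lie near the shares of all genes. upf1, the helicase of nonsense-mediated decay, fell in S2A, at −0.52 ± 0.043 (adjusted p = 7.86e-07), in S7A, at −0.18 ± 0.043 (adjusted p = 0.00478), and in Y1F, at −0.17 ± 0.043 (adjusted p = 0.00926). pab2, which takes part in the nuclear decay of an intron-bearing ribosomal protein transcript in fission yeast, rose in S7A, at 0.22 ± 0.054 (adjusted p = 0.00614). Of 15 genes for ribosomal protein gene regulation and TOR growth signalling, 2 were higher and 2 lower in S2A, 3 and 1 in S7A, and 6 and 0 in Y1F. The Y1F counts were 4 higher and 0 lower with DESeq2, and 1 was lower at an unadjusted p under 0.05 by edgeR and, by adjusted p, with RLE scaling, scaling on protein-coding genes or a filter of 5 CPM. sfp1, a transcription factor of this group, rose in S7A, at 0.21 ± 0.042, and in Y1F, at 0.28 ± 0.042 (adjusted p = 0.00129 and 0.000321). In each of these 3 lists the median change was within 0.13 of 0 in every mutant.

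The protein-coding genes most like each copy over the 8 libraries were found by Pearson correlation of log2 CPM among 4769 genes; the 8 libraries are 4 strains in pairs, and the values are a description. For rps1401 they were nud3, which encodes a nuclear movement protein, mam1, which exports the mating pheromone M-factor, and ste4, an adaptor of the pheromone pathway (r = 0.992, 0.992 and 0.990). ste4 averaged 3.69 CPM in S2A, 9.33 in S7A, 17.4 in Y1F and 23.3 in WT, the same order of strains as rps1401. It was picked by its likeness to rps1401 in these libraries, so the shared order follows largely from the pick. For rps2202 they were reg1, a phosphatase regulator gene, the septin gene spn7 and the DNA repair gene rhp42 (r = 0.993, 0.989 and 0.988), with far smaller changes; reg1 averaged 82.0 CPM in S2A, 81.9 in S7A, 103 in Y1F and 98.6 in WT. The genes nearest the strong copies were mostly of the translation machinery. They were rps1501, the fatty acid ligase gene lcf1 and rpl802 for rps1402 (r = 0.984, 0.977 and 0.970), and rps2602, tif301 and rpl901 for rps2201 (r = 0.990, 0.968 and 0.954).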

How the data were processed

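The authors deposited raw counts, whole numbers of reads per gene ID for each of 8 libraries; per the labels, libraries were ribosomal RNA-depleted, strand-preserving and read as pairs of 100 nt. Per the submitters' processing notes, HISAT2, featureCounts, StringTie, DESeq2 and deepTools were used with build ASM294v2; versions and the strand setting of the counting are not stated. The reference at hand, ASM294v3, is another build: it gave names for 6797 of 7000 IDs, gene order, exon structure and the comparison of copies within that build, and no coordinates are printed.

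Counts were filtered (filterByExpr, minimum count 10, minimum total 15; 6243 genes), scaled by TMM and fitted with edgeR 4.0.16 in R 4.3.3, 1 mean per strain over all 8 libraries (4 residual degrees of freedom, biological coefficient of variation 4.44%). SEs are |log2 change|/√F, and intervals use 4 degrees of freedom. Sums of pairs replaced their rows in a second table of 6241 genes. Copy ratios, log2((copy 1 + 0.5)/(copy 2 + 0.5)), were tested with limma 3.58.1 over 50 families, defined by symbol. With 2 libraries a side an exact permutation test cannot go below p = 0.333. Scripts were tested on simulated data. DESeq2 1.42.0 and other settings served as alternatives. Figures used matplotlib 3.10.9.

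The 4 genes were chosen by the S2A change of 1 copy per pair, so S2A values of the genes, sums and ratios have no test. Genes and lists were chosen with earlier results of these data known. Named besides them are, by rule, genes next to or overlapping a copy, the 3 most like each copy, list members that were called with the largest changes (up to 3, of which some are given) and the families with the largest change of ratio; fap7 is described by role.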

Additional observations from a re-analysis of the deposited data

Results flagged for a closer look

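rps2202 was marked because its effect against WT had opposite signs in S7A and Y1F, both called, and the difference between those strains was itself tested: −1.33 on the log2 scale between S7A and Y1F (edgeR adjusted p = 5.96e-10). The ratio of rps2201 to rps2202 was marked for the same reason, with a difference of 1.47 (limma adjusted p = 1.84e-09). The Y1F side of the gene is weak, since its rise against WT lost its call under 7 of 15 other settings. Groups of 2 libraries were too small to look for single outlying samples.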

How the results depend on the processing

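The settings tried gave 516 values in all, and changes of direction or of call were limited to those named here. With DESeq2, rps2202 in Y1F was at 0.14 (adjusted p = 0.0690) and rps2201 between S7A and Y1F at 0.15 (adjusted p = 0.0484, now called). In fits of only the compared strains these were 0.14 (adjusted p = 0.0557) and 0.15 (adjusted p = 0.00541, now called). With RLE scaling the rps22 sum between S7A and Y1F was −0.15 (adjusted p = 0.0519).

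With 1 library left out at a time, genes called in Y1F ranged from 1203 to 2184 (2186 with all libraries; 1203 without Y1F replicate 2, of which the cause was not tested). In S7A rps2201 ranged from −0.18 to 0.032. In Y1F, rps1401 ranged from −0.34 to −0.17, rps1402 from −0.33 to −0.19, rps2201 from −0.31 to −0.115, rps2202 from 0.11 to 0.17, the rps14 sum from −0.32 to −0.20, the rps22 sum from −0.19 to −0.043, the rps14 ratio from −0.046 to 0.069 (never called) and the rps22 ratio from −0.45 to −0.26. Between S7A and Y1F, rps1402 ranged from −0.13 to 0.017 (never called), rps2201 from 0.12 to 0.15, the rps14 sum from −0.23 to −0.11 and the rps22 sum from −0.17 to −0.15. Fits with a library left out leave 1 sample in a strain, which is assumed to vary like the others.

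Replicate numbers were shared between strains, but deviations of replicate 1 correlated from −0.163 to 0.178 over the pairs of strains, and the labels do not tie numbers to a day or culture. Counts of the fixed lists moved by over 1.5 times in S7A with DESeq2 (assembly factors, 6 lower by edgeR and 3 by DESeq2; decay genes, 3 and 1), in S2A with DESeq2 (regulation genes, 2 lower and 1), in Y1F with DESeq2, no filter, only the compared strains or the replicate block (assembly factors, 1 lower and 0), in Y1F with RLE scaling, scaling on protein-coding genes or the 5 CPM filter (regulation genes, 0 lower and 1), in S7A with only the compared strains (decay genes, 1 lower), and in S2A with only the compared strains (large-subunit genes, 49 and 32). Those moves are in comparisons with WT. Between S7A and Y1F, higher small-subunit genes went from 4 to 9 with DESeq2 and to 12 with only the compared strains. With the replicate block they went from 4 to 2. Higher large-subunit genes went from 3 to 11 with DESeq2 and to 22 with only the compared strains. With RLE scaling or scaling on protein-coding genes they went from 3 to 5. With only the compared strains, lower genes went from 3 to 5 (small subunit) and from 7 to 11 (large subunit). Lower decay genes went from 4 to 1 with DESeq2, and higher decay genes from 1 to 0. A replicate block changed no call of the 4 genes, sums or ratios. With it, rps2202 in Y1F was at 0.15 (adjusted p = 0.0423) and 2078 genes were called in Y1F. Depth was no limit for the 4 genes, which had 2764 to 28391 counts per library.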
